A study of Homo sapiens with 12 samples.

Results

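The mitochondrial genome of human cells encodes 13 mRNAs and 22 transfer RNAs, and all 35 were found in the deposited table of 38019 genes by their symbols. The mRNAs are written as ND1 to ND6 with ND4L, CYTB, COX1 to COX3, ATP6 and ATP8, and the transfer RNAs by the letters TRN and the code of their amino acid. COX1 and COX2 in this table are subunits of cytochrome c oxidase, not the prostaglandin synthases that carry the same everyday names. The libraries came from HEK293T cells, a human embryonic kidney line, collected 24 h after transient transfection with FuGENE. NRF1, NRF2, NRF3 and empty vector had 3 libraries each, which the labels describe as independent experiments, and p-values therefore measure the spread between those experiments in a single cell line. The transgenes were FLAG-tagged and built to escape normal control: NRF1 and NRF3 lacked the N-terminal sequence that sends them to the endoplasmic reticulum, and NRF2 carried a substitution reported to block its binding to KEAP1. All of them were driven from plasmids in transfected cells, and all libraries, empty vector included, share the transfection itself.

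The mitochondrial genome is a compact circle that is copied into RNA from a heavy-strand promoter and a light-strand promoter, each giving a long transcript that spans many genes. Transfer RNAs lie between most mRNAs, and cutting them out by the RNase P and ELAC2 enzymes releases the mRNAs, an arrangement known as transfer RNA punctuation. The mRNAs encode core subunits of respiratory chain complexes I, III and IV and of the ATP synthase, complex V, whereas every protein that transcribes, cuts, modifies and translates them comes from the nucleus. Of the 35 members, 26 derive from the heavy-strand promoter (12 mRNAs and 14 transfer RNAs) and 9 from the light-strand promoter (ND6 and 8 transfer RNAs). NRF1, NRF2 and NRF3 here are the CNC transcription factors encoded by NFE2L1, NFE2L2 and NFE2L3. A different protein called nuclear respiratory factor 1 shares an abbreviation with the first of them and is a separate gene.

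The 6 transfer RNA genes on which the results turn are shown 5′ to 3′ as DNA letters, with the anticodon in capitals. TRNY and TRNL2 were called lower with both NRF1 and NRF2, and TRNS1 had the smallest adjusted p of the transfer RNAs with NRF2. TRNH and TRNI are shown as heavy-strand members called lower with NRF1, of which TRNI was called with NRF2 as well. Each of these NRF1 calls was lost in 5 of the fits that left out a library. TRNP changed least of the members tested, both with NRF1 and with NRF2. The sequences and GRCh38 positions are those of GENCODE release 29, in which all 35 members were found.
TRNY (tyrosine; chrM:5826-5891, minus strand): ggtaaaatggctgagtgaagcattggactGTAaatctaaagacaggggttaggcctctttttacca
TRNL2 (leucine, CUN codons; chrM:12266-12336, plus strand): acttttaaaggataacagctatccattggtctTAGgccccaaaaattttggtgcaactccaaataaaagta
TRNS1 (serine, UCN codons; chrM:7446-7514, minus strand): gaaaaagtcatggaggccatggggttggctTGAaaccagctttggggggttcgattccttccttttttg
TRNH (histidine; chrM:12138-12206, plus strand): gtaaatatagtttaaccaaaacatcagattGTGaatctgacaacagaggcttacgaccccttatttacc
TRNI (isoleucine; chrM:4263-4331, plus strand): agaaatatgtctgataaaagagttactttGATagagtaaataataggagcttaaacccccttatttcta
TRNP (proline; chrM:15956-16023, minus strand): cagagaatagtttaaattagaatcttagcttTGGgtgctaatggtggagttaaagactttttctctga
Among the mRNAs, ATP8 overlaps ATP6 and ND4L overlaps ND4. ATP8 and ATP6 share 46 bases at chrM:8527-8572 on the plus strand, given here with the start codon of ATP6 in capitals, and they were the only members with counts that were not whole in the deposited table.
ATP8 and ATP6 overlap: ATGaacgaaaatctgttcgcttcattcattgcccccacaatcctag

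Total counts were 13452525 to 14014319 per library. The transgene labels were checked on HMOX1, a shared target of these factors, which stood at 476 to 613 CPM (counts per 1000000 of the library total) with NRF1, 1362 to 1473 CPM with NRF2, 297 to 377 CPM with NRF3 and 57.8 to 65.6 CPM with empty vector. NFE2L2 stood at 9498 to 11363 CPM with NRF2 and at 89.0 to 97.4 CPM with empty vector, while NFE2L1 and NFE2L3 did not mark their transgenes, whose codons had been altered. Since HMOX1 was raised with every transgene, these genes do not check the NRF1 and NRF3 labels against each other. All 8 HEK293T markers were detected in every library, with a summed level of 310 to 355 CPM with NRF1, 399 to 427 CPM with NRF2, 232 to 342 CPM with NRF3 and 270 to 293 CPM with empty vector. Among these, NEFL and NEFM were higher with NRF2, and their part in the results was not tested. Of 9 markers of other cell types, 7 were too low to test and none of the others was called, with a summed level of 32.7 to 36.1 CPM with NRF1, 34.0 to 36.7 CPM with NRF2, 26.8 to 37.8 CPM with NRF3 and 32.0 to 35.4 CPM with empty vector. ALB and MYH7 did not exceed 0.0737 CPM in any library. The 2 that could be tested were present in every library, COL1A1 at 8.10 to 16.0 CPM and ACTA1 at 15.9 to 23.3 CPM.

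The 13 mRNAs took a smaller share of the library with NRF1 and with NRF2 than with NRF3 or empty vector. They held 3.69% ± 0.783 of the total count with NRF1, 3.59% ± 0.518 with NRF2, 6.20% ± 0.865 with NRF3 and 6.30% ± 0.603 with empty vector (SD, n = 3 each). In single libraries the share was 4.58%, 3.38% and 3.11% with NRF1, 3.08%, 3.58% and 4.11% with NRF2, 7.16%, 5.98% and 5.47% with NRF3 and 6.42%, 5.65% and 6.84% with empty vector. Every NRF1 and NRF2 library lay below every NRF3 and empty vector library, and the NRF3 libraries overlapped those of empty vector. The 22 transfer RNAs together held 0.0141% ± 0.00209 with NRF1, 0.0139% ± 0.00181 with NRF2, 0.0233% ± 0.00293 with NRF3 and 0.0228% ± 0.00136 with empty vector. The mean mRNA share was thus 0.585 of the empty vector mean with NRF1, 0.570 with NRF2 and 0.985 with NRF3, and the transfer RNA share 0.621, 0.609 and 1.03 of it. The 75 nuclear genes for other subunits of the same complexes held 1.35% ± 0.0607 with NRF1, 1.32% ± 0.0861 with NRF2, 1.40% ± 0.206 with NRF3 and 1.38% ± 0.0425 with empty vector. In such bulk libraries a smaller share of mitochondrial RNA can come from fewer mitochondria, from fewer genome copies or from less RNA per copy. A share also depends on the amount of all other RNA in the library, and these cannot be told apart.

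**Figure D1:**
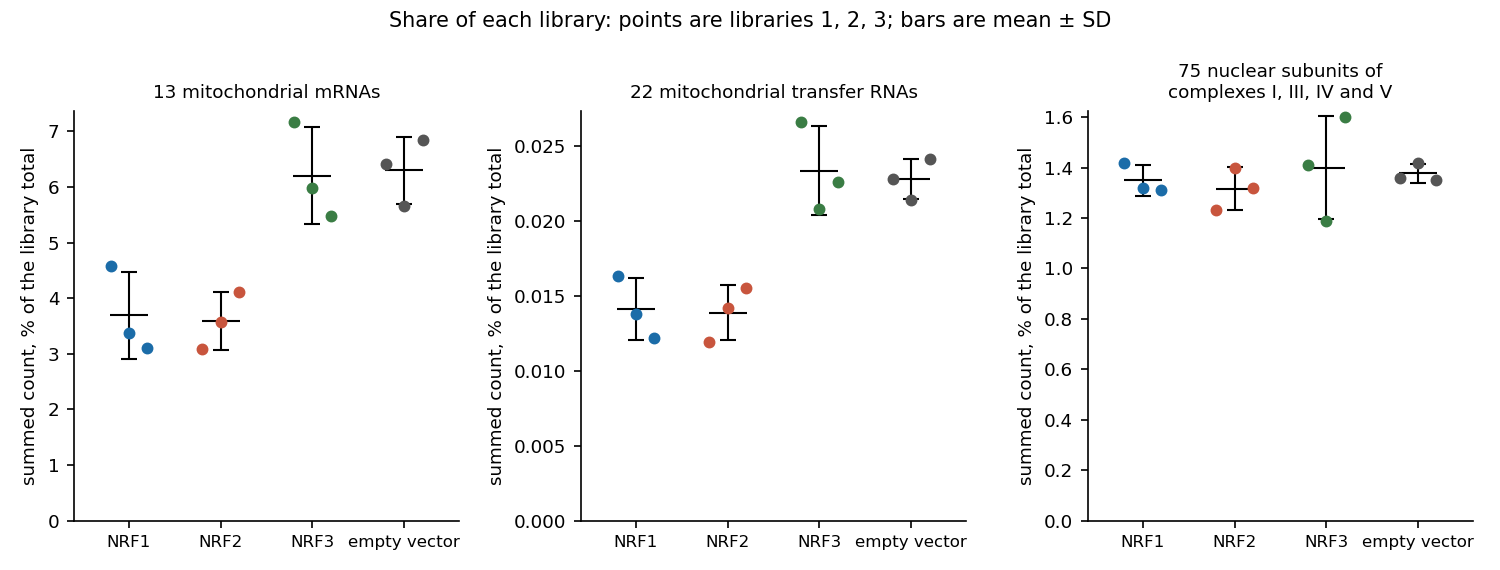
Share of each library's total count, in percent, held by the 13 mRNAs, the 22 transfer RNAs and 75 nuclear subunits of complexes I, III, IV and V. Points are the 3 libraries of NRF1, NRF2, NRF3 and empty vector from left to right, and bars are mean ± SD; the mRNA share is 3.08% to 4.58% in the NRF1 and NRF2 libraries and 5.47% to 7.16% in the others.

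Within the mRNAs the level differed by gene. Per kilobase of gene, COX2 was highest and ND6 lowest in all groups: COX2 stood at 6211, 6075, 10377 and 10633 CPM per kilobase and ND6 at 962, 1167, 2051 and 1694 CPM per kilobase with NRF1, NRF2, NRF3 and empty vector (group means). The ratio of highest to lowest was 6.46, 5.20, 5.06 and 6.28 in the same order. With empty vector, COX2, ATP6 and COX3 had means of 10633 ± 1008, 10351 ± 842 and 10302 ± 810 CPM per kilobase, which do not differ beyond their spread. The transfer RNAs lay far below the mRNAs on the same scale, with TRNY at 484 ± 22.5 and TRNW at 4.69 ± 2.25 CPM per kilobase with empty vector. RNeasy columns recover short RNA poorly, and mature transfer RNA and uncut precursors cannot be told apart in these counts. Without a stated strand setting, reads from a member and from the transcript opposite to it cannot be told apart either, which concerns ND6 and the 8 light-strand transfer RNAs most, since they lie opposite the abundant heavy-strand transcript.

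**Figure D2:**
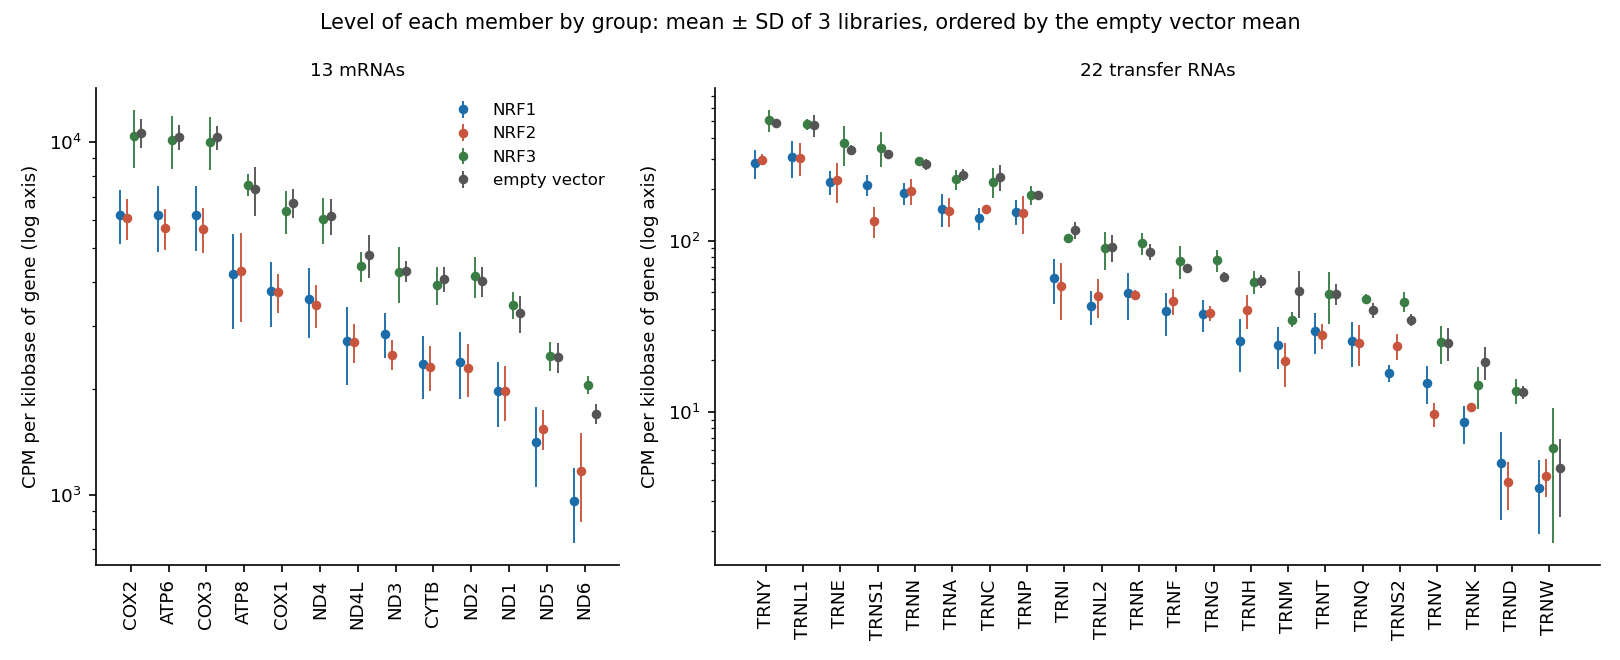
Level of each mRNA (left) and transfer RNA (right) in CPM per kilobase of gene on a log axis, ordered by the empty vector mean. Points and bars are mean ± SD of 3 libraries for NRF1, NRF2, NRF3 and empty vector from left to right at each gene; the NRF1 and NRF2 points lie under the other 2 for COX2 (6211 and 6075 against 10377 and 10633) and for nearly all other members.

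NRF1 over empty vector asks how this factor, set free of its retention in the endoplasmic reticulum, changes the transcriptome. With NRF1, 19 of the 34 members tested fell and none rose: 12 of 13 mRNAs and 7 of 21 transfer RNAs. The median log2 fold change of the 34 was -0.78 (range -1.36 to -0.32), a fold of 0.583, against -0.01 over all genes. By the same test, edgeR's quasi-likelihood model with Benjamini-Hochberg adjustment at 0.05, 1.51% of all 15135 genes tested were called lower and 0.238% higher. The NRF1 libraries lay below all empty vector libraries for 34 of 34 members, against 15.9% of all genes, and above them for none, against 15.0%. TRNW, with 2 to 10 counts a library, was too low to test in any comparison. At an unadjusted p under 0.05, 33 members were lower and 0 higher, against 9.90% and 7.45% of all genes. These members share their libraries and are not independent of each other, since library 1 was the highest of the 3 NRF1 libraries for 13 of 13 mRNAs and library 3 the lowest for 13 of 13.

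The count of NRF1 calls rests on single libraries, while the direction does not. The number of members called lower was 0 without NRF1 library 2, without NRF1 library 3 or without empty vector library 3, 2 without empty vector library 1, 11 without empty vector library 2 and 23 without NRF1 library 1, and the median log2 fold change over these fits was -0.94 to -0.66. Over all genes the number called lower was 229 as reported and 39, 26, 35, 40, 76 and 278 in these fits, in the same order. In each of them 31 to 33 members were lower at an unadjusted p under 0.05. The unequal variance test named in the study's methods, applied to log2 CPM, called 0 members at adjusted p, with 25 at an unadjusted p under 0.05. That test called few genes of any kind in this comparison: 3 higher and 0 lower over all genes.

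NRF2 over empty vector asks the same of a form freed from KEAP1, the adaptor that marks NRF2 for degradation. With NRF2, 25 of 34 members fell and none rose: 12 of 13 mRNAs, all but ND6, and 13 of 21 transfer RNAs. The median log2 fold change was -0.80 (range -1.72 to -0.36), a fold of 0.573, against 0.00 over all genes. Over all genes tested 5.81% were called lower and 4.68% higher in this comparison. The NRF2 libraries lay below all empty vector libraries for 33 of 34 members, against 17.7% of all genes, and TRNP was the exception. None lay above them, against 17.8%. At an unadjusted p under 0.05, 33 members were lower and 0 higher, against 12.8% and 11.7% of all genes. Without empty vector library 3 the number called was 16, and the unequal variance test on log2 CPM called 0 at adjusted p, with 25 at an unadjusted p under 0.05. Over all genes the fit without that library called 454 lower, against 879 as reported. The unequal variance test called 32 lower and 50 higher.

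NRF3 over empty vector gave no call among the members. With NRF3, 0 of 34 members rose and 0 fell by edgeR, 0 at an unadjusted p under 0.05 in either direction, and 0 by DESeq2, with 0.0198% of all genes called higher and 0.00661% lower at adjusted p, and 1.71% and 2.41% at an unadjusted p. The median log2 fold change was 0.04 (range -0.53 to 0.37). The limma-voom fit called 0 at adjusted p, with 5 higher at an unadjusted p under 0.05, and the unequal variance test called 0, with 1 higher at an unadjusted p. The groups overlapped for 30 members, while for ND6, TRNG, TRNQ and TRNS2 all NRF3 libraries lay above those of empty vector, which is 4 of 34 against 3.95% of all genes, and for none did they lie below, against 4.64%. The 95% interval of the log2 fold change was -0.36 to 0.25 for COX1 and -0.10 to 0.70 for ND6, so that a change of the size seen with NRF1 and NRF2 lies outside the interval of both genes. That did not hold for every member. The interval of TRNM, -1.06 to 0.00, held its change of -1.04 with NRF1. The interval of TRNK, -1.02 to 0.17, held its change of -0.89 with NRF2.

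**Figure D3:**
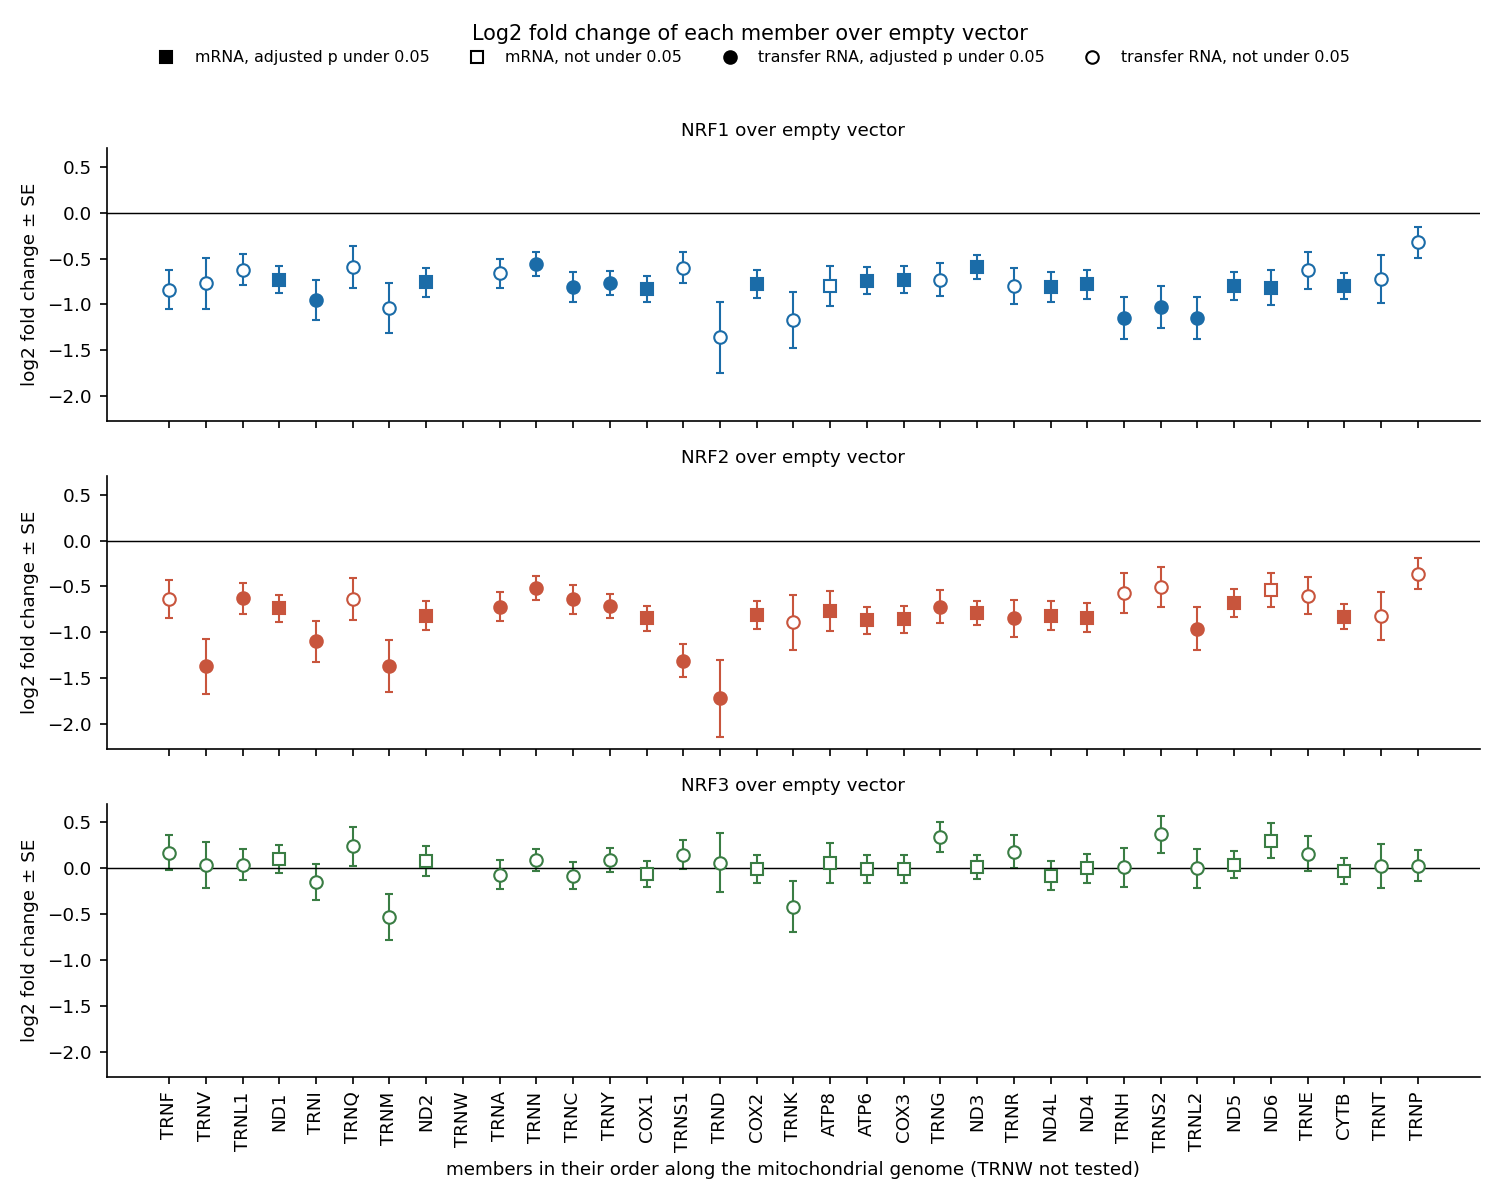
Log2 fold change ± SE over empty vector for NRF1, NRF2 and NRF3 (top to bottom), with members in their order along the mitochondrial genome. Squares are mRNAs and circles transfer RNAs, filled where adjusted p is under 0.05; with NRF1 and NRF2 all 34 points lie below 0 (medians -0.78 and -0.80), and with NRF3 they lie on both sides of it (median 0.04).

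Complex I, which takes electrons from NADH, holds 7 of the encoded proteins. Their mRNAs together held 1.42% ± 0.316 of the library with NRF1, 1.41% ± 0.212 with NRF2, 2.43% ± 0.283 with NRF3 and 2.41% ± 0.258 with empty vector. ND1, part of the arm next to the ubiquinone site, had 2325, 1748 and 1572 CPM with NRF1, 1577, 1824 and 2240 CPM with NRF2, 3605, 3257 and 3023 CPM with NRF3 and 3140, 2745 and 3499 CPM with empty vector. ND2, a proton-pumping subunit of the membrane arm, had 3094, 2272 and 2085 CPM with NRF1, 2031, 2282 and 2832 CPM with NRF2, 5013, 4058 and 3974 CPM with NRF3 and 4271, 3751 and 4572 CPM with empty vector. For both genes the NRF1 and NRF2 libraries lay below all others. ND3, a small membrane subunit, had 1142, 963 and 855 CPM with NRF1, 774, 875 and 941 CPM with NRF2, 1784, 1325 and 1322 CPM with NRF3 and 1518, 1379 and 1573 CPM with empty vector. ND4L, whose gene runs into that of ND4, had 1034, 745 and 651 CPM with NRF1, 697, 819 and 899 CPM with NRF2, 1452, 1308 and 1196 CPM with NRF3 and 1441, 1209 and 1609 CPM with empty vector. ND4, another pumping subunit, had 6216, 4515 and 4118 CPM with NRF1, 4152, 4673 and 5467 CPM with NRF2, 9743, 7845 and 7396 CPM with NRF3 and 8770, 7395 and 9323 CPM with empty vector. These genes fell with both transgenes, ND4 by a log2 fold change of -0.78 with NRF1 (SE 0.16, adjusted p = 0.0258, edgeR) and -0.84 with NRF2 (SE 0.16, adjusted p = 0.00399). ND5, the largest of the pumping subunits, had 3302, 2294 and 2080 CPM with NRF1, 2410, 2812 and 3149 CPM with NRF2, 4828, 4595 and 4011 CPM with NRF3 and 4544, 3957 and 4820 CPM with empty vector. Its log2 fold change was -0.80 with NRF1 (SE 0.15, adjusted p = 0.02) and -0.68 under NRF2 (SE 0.15, adjusted p = 0.0122).

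ND6, a subunit of the membrane arm, is the only mRNA of the light-strand promoter. It had 635, 487 and 393 CPM with NRF1, 446, 604 and 789 CPM with NRF2, 1038, 1148 and 1044 CPM with NRF3 and 894, 829 and 946 CPM with empty vector. The NRF2 libraries ranged widely and reached close to the lowest empty vector library, and the NRF3 libraries were all above those of empty vector. ND6 fell with NRF1 (log2 fold change -0.82, SE 0.19, adjusted p = 0.0464), a call that did not hold under 14 of 22 alternatives, whose adjusted p ran up to 0.3. With NRF2 its log2 fold change was -0.54 (SE 0.19, adjusted p = 0.0874), and with NRF3 0.30 (SE 0.19, adjusted p = 0.994). The direct difference, NRF2 minus NRF1, was 0.28 for ND6 (95% interval -0.13 to 0.68, adjusted p = 0.663).

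CYTB, the catalytic cytochrome b of complex III, had 3292, 2500 and 2244 CPM with NRF1, 2245, 2638 and 3008 CPM with NRF2, 5105, 4344 and 4031 CPM with NRF3 and 4713, 4263 and 5000 CPM with empty vector. It fell by a log2 fold change of -0.80 with NRF1 (SE 0.14, adjusted p = 0.0127) and -0.83 under NRF2 (SE 0.14, adjusted p = 0.00172). Complex IV passes electrons to oxygen, and its 3 encoded subunits form the catalytic core. COX1, which binds the haem and copper of the reaction centre, had 7207, 5293 and 4983 CPM with NRF1, 5039, 5849 and 6478 CPM with NRF2, 11291, 9543 and 8605 CPM with NRF3 and 10517, 9340 and 11252 CPM with empty vector. COX2, which receives electrons from cytochrome c, had 5094, 3941 and 3710 CPM with NRF1, 3581, 4195 and 4691 CPM with NRF2, 8611, 6632 and 6050 CPM with NRF3 and 7421, 6521 and 7877 CPM with empty vector. COX3, a structural subunit of the core, had 6043, 4430 and 4134 CPM with NRF1, 3771, 4522 and 5059 CPM with NRF2, 9361, 7431 and 6788 CPM with NRF3 and 8235, 7378 and 8618 CPM with empty vector. In all 3 genes every NRF1 and NRF2 library was below every NRF3 and empty vector library. COX1 fell by a log2 fold change of -0.83 with NRF1 (SE 0.14, adjusted p = 0.0109) and -0.85 under NRF2 (SE 0.14, adjusted p = 0.00151), a fold of 0.562 and 0.556. ATP6, the proton channel subunit of complex V, had 5235, 3851 and 3573 CPM with NRF1, 3401, 3813 and 4417 CPM with NRF2, 8179, 6645 and 5840 CPM with NRF3 and 7240, 6405 and 7503 CPM with empty vector. ATP8, which sits beside it, had 1166, 780 and 671 CPM with NRF1, 648, 877 and 1153 CPM with NRF2, 1573, 1670 and 1451 CPM with NRF3 and 1462, 1313 and 1787 CPM with empty vector. ATP6 fell with NRF1 (-0.74, SE 0.15, adjusted p = 0.0258) and under NRF2 (-0.87, SE 0.15, adjusted p = 0.00226). ATP8 had the widest error of the mRNAs: -0.80 with NRF1 (SE 0.22, adjusted p = 0.1) and -0.77 under NRF2 (SE 0.22, adjusted p = 0.0476), and the division of reads over the 46 shared bases between ATP8 and ATP6 is part of the authors' estimate.

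The mix of the 13 mRNAs was similar in all groups. Each mRNA's share of the 13 was 0.950 to 1.24 of its empty vector share over the 3 transgenes. COX1 was 15.8% ± 0.203 of the mRNA counts with NRF1, 16.2% ± 0.351 with NRF2, 15.8% ± 0.124 with NRF3 and 16.5% ± 0.0727 with empty vector, and no transgene library reached the lowest empty vector library before rounding. ND5 was 6.90% ± 0.276 with NRF1, 7.78% ± 0.109 with NRF2, 7.25% ± 0.474 with NRF3 and 7.05% ± 0.0378 with empty vector, and only the NRF2 libraries were all above empty vector. ND3 was 2.70% ± 0.183 with NRF1, 2.42% ± 0.117 with NRF2, 2.37% ± 0.143 with NRF3 and 2.37% ± 0.0706 with empty vector, above it in all NRF1 libraries. These shares are given without a test. Of the 13 shares, 8 overlapped empty vector in the NRF1 libraries and 11 each in the NRF2 and NRF3 libraries.

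The transfer RNAs as a group were lower with NRF1 and NRF2, as the mRNAs were, at far lower counts. There were 3.86 ± 0.267 transfer RNA counts per 1000 mRNA counts with NRF1, 3.87 ± 0.112 with NRF2, 3.77 ± 0.325 with NRF3 and 3.62 ± 0.141 with empty vector. The median log2 fold change over the 21 tested was -0.77 with NRF1, -0.72 with NRF2 and 0.04 with NRF3. By promoter, the light-strand transfer RNAs held 0.644 of their empty vector share with NRF1, 0.620 with NRF2 and 1.03 with NRF3, and the heavy-strand ones 0.579, 0.590 and 1.01. Light-strand counts per heavy-strand count were 2.01 ± 0.285 with NRF1, 1.87 ± 0.159 with NRF2, 1.82 ± 0.106 with NRF3 and 1.79 ± 0.151 with empty vector, which overlap.

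Among the light-strand transfer RNAs, TRNY, which carries tyrosine, had 22.7, 18.1 and 15.6 CPM with NRF1, 17.9, 20.3 and 20.6 CPM with NRF2, 37.9, 28.0 and 34.3 CPM with NRF3 and 31.2, 31.1 and 33.7 CPM with empty vector. TRNN, for asparagine, had 16.0, 13.6 and 11.9 CPM with NRF1, 12.4, 13.4 and 17.0 CPM with NRF2, 21.1, 22.6 and 20.4 CPM with NRF3 and 21.5, 18.7 and 20.8 CPM with empty vector. TRNC, for cysteine, had 9.69, 9.63 and 7.46 CPM with NRF1, 9.42, 10.6 and 10.3 CPM with NRF2, 17.6, 14.1 and 12 CPM with NRF3 and 13.6, 14.6 and 18.7 CPM with empty vector. All 3 were called lower with both transgenes, TRNY by -0.77 with NRF1 (SE 0.13, adjusted p = 0.00999) and -0.71 under NRF2 (SE 0.13, adjusted p = 0.00268). TRNA, for alanine, had 13.3, 9.12 and 9.41 CPM with NRF1, 8.06, 10.7 and 12 CPM with NRF2, 18.2, 14.4 and 14.6 CPM with NRF3 and 15.5, 18.1 and 16.8 CPM with empty vector. It fell with NRF2 (-0.72, SE 0.16, adjusted p = 0.0112) and had a log2 fold change of -0.66 with NRF1 (SE 0.16, adjusted p = 0.0505). TRNP, for proline, lay closest to empty vector, with 11.1, 10.9 and 8.11 CPM with NRF1, 7.21, 10.3 and 12.1 CPM with NRF2, 12.7, 11.0 and 14.3 CPM with NRF3 and 13.1, 11.7 and 12.9 CPM with empty vector, and log2 fold changes of -0.32 with NRF1 and -0.36 with NRF2 at adjusted p of 0.342 and 0.21.

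TRNS1, the serine transfer RNA for UCN codons whose gene follows the end of COX1 on the opposite strand, had 12.4, 16.4 and 15.1 CPM with NRF1, 7.14, 8.97 and 10.9 CPM with NRF2, 29.3, 18.4 and 24.7 CPM with NRF3 and 22.2, 22.5 and 21.8 CPM with empty vector. The NRF2 libraries were the lowest, the NRF1 libraries lay between them and empty vector, and the empty vector libraries were nearly level. With NRF2 TRNS1 fell by 1.31 on the log2 scale (SE 0.18, adjusted p = 0.000177), a fold of 0.404, the smallest adjusted p of the members in that comparison, and this call was lost in 1 of 22 alternatives, the unequal variance test (adjusted p = 0.17). With NRF1 the log2 fold change was -0.60 (SE 0.17, adjusted p = 0.0805). The direct difference, NRF2 minus NRF1, was -0.71 (95% interval -1.09 to -0.32, unadjusted p = 0.0013, adjusted p = 0.0795), and all NRF2 libraries were below all NRF1 libraries. That difference passed the threshold under DESeq2 (adjusted p = 0.0162) and limma-voom (adjusted p = 0.0114). In 15 of 22 alternatives it did not pass, and over all settings its adjusted p ran up to 0.534. As a share of transfer RNA counts, TRNS1 made up 106 ± 26.3 per 1000 with NRF1, 64.4 ± 5.28 with NRF2, 103 ± 12.3 with NRF3 and 97.7 ± 7.21 with empty vector.

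Among the heavy-strand transfer RNAs, TRNI, for isoleucine, had 5.46, 3.94 and 3.04 CPM with NRF1, 2.85, 3.04 and 5.32 CPM with NRF2, 7.44, 7.19 and 6.62 CPM with NRF3 and 9.06, 7.44 and 7.50 CPM with empty vector. TRNL2, the leucine transfer RNA for CUN codons, had 3.57, 2.26 and 2.97 CPM with NRF1, 3.50, 4.20 and 2.44 CPM with NRF2, 8.18, 5.01 and 6.02 CPM with NRF3 and 5.82, 5.89 and 7.87 CPM with empty vector. Both fell with NRF1 and with NRF2, TRNL2 by -1.15 (SE 0.23, adjusted p = 0.0214) and -0.96 (SE 0.23, adjusted p = 0.0136). TRNH, for histidine, had 2.40, 1.17 and 1.81 CPM with NRF1, 2.50, 3.40 and 2.23 CPM with NRF2, 4.64, 3.70 and 3.57 CPM with NRF3 and 4.35, 3.61 and 4.05 CPM with empty vector. TRNS2, the serine transfer RNA for AGY codons that lacks a D-arm, had 0.874, 1.09 and 1.01 CPM with NRF1, 1.64, 1.16 and 1.51 CPM with NRF2, 2.95, 2.25 and 2.60 CPM with NRF3 and 1.99, 2.21 and 1.91 CPM with empty vector. TRNH and TRNS2 lie side by side between ND4 and TRNL2, and both fell with NRF1, TRNH by -1.15 (SE 0.23, adjusted p = 0.0216) and TRNS2 by -1.03 (SE 0.23, adjusted p = 0.0339). With NRF2 their log2 fold changes were -0.57 (adjusted p = 0.113) and -0.51 (adjusted p = 0.168), and the direct difference from NRF1 was 0.58 for TRNH (95% interval 0.06 to 1.11, adjusted p = 0.4) and 0.52 for TRNS2 (95% interval -0.00 to 1.04, adjusted p = 0.527).

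A further 6 heavy-strand transfer RNAs were called lower with NRF2 and not with NRF1. TRNL1, the leucine transfer RNA for UUR codons, had 29.7, 19.9 and 19.9 CPM with NRF1, 18.9, 21.3 and 28.7 CPM with NRF2, 38.8, 34.9 and 34.0 CPM with NRF3 and 34.6, 30.9 and 41.0 CPM with empty vector. TRNG, for glycine, had 3.13, 2.26 and 2.17 CPM with NRF1, 2.57, 2.82 and 2.30 CPM with NRF2, 5.31, 4.43 and 5.95 CPM with NRF3 and 4.27, 3.90 and 4.41 CPM with empty vector. TRNR, for arginine, had 4.15, 2.19 and 3.33 CPM with NRF1, 2.93, 3.33 and 3.16 CPM with NRF2, 7.37, 5.74 and 5.72 CPM with NRF3 and 5.67, 5.01 and 6.18 CPM with empty vector. These 3 had nearly the same log2 fold change with NRF1 as with NRF2: -0.62 and -0.63 for TRNL1, -0.73 and -0.72 for TRNG, and -0.80 and -0.85 for TRNR. TRNV, which is a structural part of the mitochondrial ribosome as well as a carrier of valine, had 1.31, 0.876 and 0.869 CPM with NRF1, 0.642, 0.579 and 0.791 CPM with NRF2, 1.40, 2.25 and 1.64 CPM with NRF3 and 2.06, 1.33 and 1.84 CPM with empty vector. TRNM, for methionine, had 2.04, 1.82 and 1.16 CPM with NRF1, 1.71, 0.940 and 1.37 CPM with NRF2, 2.58, 2.11 and 2.38 CPM with NRF3 and 3.76, 2.28 and 4.34 CPM with empty vector. TRND, for aspartate, had 0.364, 0.146 and 0.507 CPM with NRF1, 0.214, 0.217 and 0.360 CPM with NRF2, 1.03, 0.944 and 0.743 CPM with NRF3 and 0.884, 0.810 and 0.956 CPM with empty vector, which is 2 to 14 counts a library. For these 3 genes all NRF2 libraries were below all empty vector libraries. Their log2 fold changes with NRF2 were -1.37, -1.37 and -1.72, at standard errors of 0.30, 0.28 and 0.42, and those with NRF1 were -0.77, -1.04 and -1.36. No direct difference between NRF2 and NRF1 passed the threshold for any of these 6, so that the calls do not show that the transgenes differ on them.

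The other transfer RNAs tested, TRNF, TRNQ, TRNK, TRNE and TRNT, were called with neither transgene. Their log2 fold changes were -1.17 to -0.59 with NRF1 (adjusted p = 0.0551 to 0.206) and -0.89 to -0.60 with NRF2 (adjusted p = 0.057 to 0.0987), on the same side of 0 as those that passed. With NRF3 the transfer RNA farthest below 0 was TRNM (-0.53, 95% interval -1.06 to 0.00) and the one farthest above it TRNS2 (0.37, 95% interval -0.04 to 0.79), neither of which passed.

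**Figure D4:**
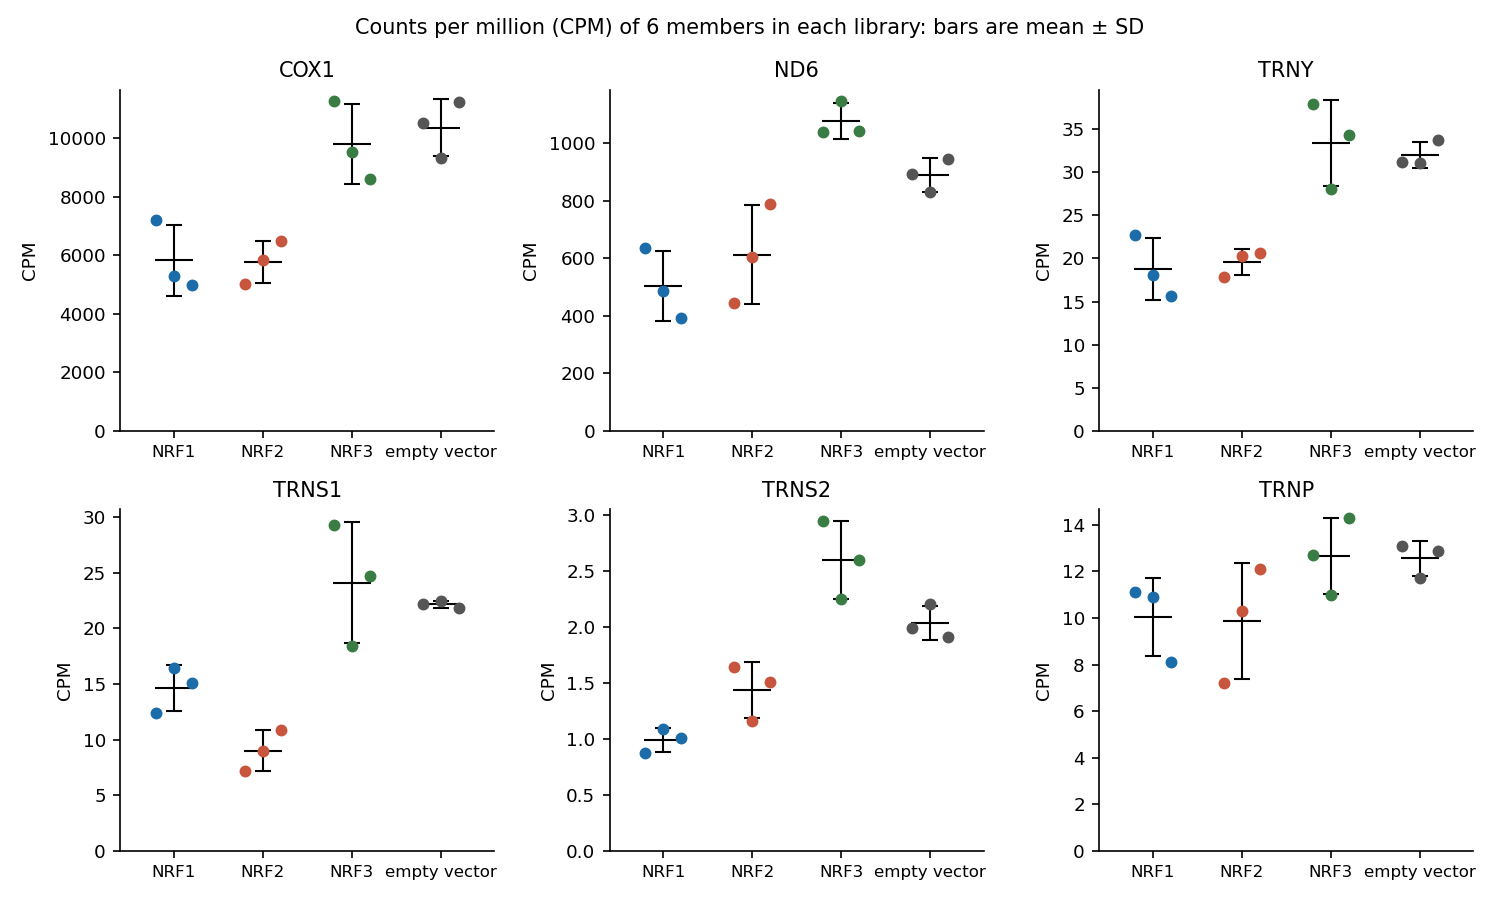
CPM of 6 members in each library, with NRF1, NRF2, NRF3 and empty vector from left to right; points are libraries and bars mean ± SD. COX1 and TRNY show the pattern shared by most members, TRNS1 is lowest in the NRF2 libraries (7.14 to 10.9 CPM), TRNS2 is lowest in the NRF1 libraries (0.874 to 1.09 CPM), ND6 is highest in the NRF3 libraries (1038 to 1148 CPM), and the TRNP groups lie close together.

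In the direct comparisons members were called between NRF3 and each of the other transgenes, and none between NRF2 and NRF1. For NRF2 over NRF1, edgeR called 0 members in either direction, against 1.04% of all genes higher and 0.205% lower, with 1 member higher and 1 lower at an unadjusted p under 0.05 (6.31% and 4.36% of all genes), and DESeq2 and limma-voom each called 1 lower, TRNS1. The median log2 fold change was -0.02 (range -0.71 to 0.58), and for COX1 it was -0.01 (95% interval -0.32 to 0.29). The libraries did not overlap for TRNS2 (above) and for TRNS1 and TRNV (below), against 10.0% and 8.81% of all genes. For NRF3 over NRF1, 15 of 34 members were called higher, 7 mRNAs and 8 transfer RNAs, against 0.350% of all genes, and 0 lower, against 0.0463%, with a median of 0.78. At an unadjusted p under 0.05, 32 were higher and 0 lower, against 6.82% and 4.91%. All NRF3 libraries were above all NRF1 libraries for 33 of 34 members, against 7.36% of all genes, and below them for none, against 5.34%. For NRF3 over NRF2, 28 of 34 were called higher, 12 mRNAs and 16 transfer RNAs, against 2.75% of all genes, and 0 lower, against 2.42%, with a median of 0.84. At an unadjusted p under 0.05, 33 were higher and 0 lower, against 10.5% and 10.0%. All NRF3 libraries were above all NRF2 libraries for 33 of 34 members, against 10.1% of all genes, and below them for none, against 9.74%. These comparisons share libraries with those above and are not independent of them. The NRF3 over NRF1 count was 0 without NRF1 library 2, without NRF1 library 3 or without NRF3 library 1, 3 without empty vector library 1 or 2 or NRF2 library 2, 5 without empty vector library 3, 8 without NRF3 library 3 and 24 without NRF3 library 2. Over all genes the fits with 0 members called 3, 4 and 5 higher, and the last fit 641, against 53 as reported. The NRF3 over NRF2 count was 17 and 16 without NRF2 library 1 and 2, and 15 without NRF3 library 1. Over all genes those fits called 246, 199 and 162 higher, against 416 as reported.

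The mitochondrial ribosomal RNAs RNR1 and RNR2, which lie upstream of the mRNAs on the heavy-strand transcript, fell as well. RNR1 had 790, 659 and 598 CPM with NRF1, 620, 709 and 768 CPM with NRF2, 1134, 940 and 975 CPM with NRF3 and 988, 947 and 1039 CPM with empty vector. RNR2 had 3832, 3054 and 2651 CPM with NRF1, 2836, 3295 and 3526 CPM with NRF2, 5875, 5036 and 4510 CPM with NRF3 and 5229, 4643 and 5592 CPM with empty vector. Both were called lower with NRF1 (-0.54, SE 0.11, adjusted p = 0.0195 for RNR1 and -0.70, SE 0.13, adjusted p = 0.0187 for RNR2) and with NRF2 (-0.51, SE 0.11, adjusted p = 0.00661 and -0.68, SE 0.13, adjusted p = 0.00433). Ribosomal RNA counts per 100 mRNA counts were 10.5 ± 0.446 with NRF1, 11.0 ± 0.445 with NRF2, 9.93 ± 0.126 with NRF3 and 9.76 ± 0.118 with empty vector. Nuclear copies of RNR2 could take reads from it, and the 10 MTRNR2L genes in the table held 15 to 37 counts a library in all, nearly all of them in MTRNR2L8.

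No nuclear gene listed for the same complexes was called in the comparisons with empty vector. Of 75 nuclear subunits of complexes I, III, IV and V, 73 were tested and edgeR called 0 in any of the 3 comparisons with empty vector, with 1, 1 and 0 at an unadjusted p under 0.05 for NRF1, NRF2 and NRF3. Shares of all genes called were 0.238% higher and 1.51% lower with NRF1, 4.68% and 5.81% with NRF2, and 0.0198% and 0.00661% with NRF3. At an unadjusted p they were 7.45% and 9.90%, 11.7% and 12.8%, and 1.71% and 2.41%. The complex V list includes ATPIF1, an inhibitor of the ATP synthase. Their median log2 fold change was -0.04, -0.07 and 0.06, where that of the 13 mRNAs was -0.78, -0.82 and -0.00. By complex, the nuclear subunits had medians of -0.02, -0.05 and 0.07 for complex I, 0.01, -0.02 and 0.08 for complex III, -0.05, -0.08 and 0.05 for complex IV and -0.08, -0.12 and 0.04 for complex V.

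**Figure D5:**
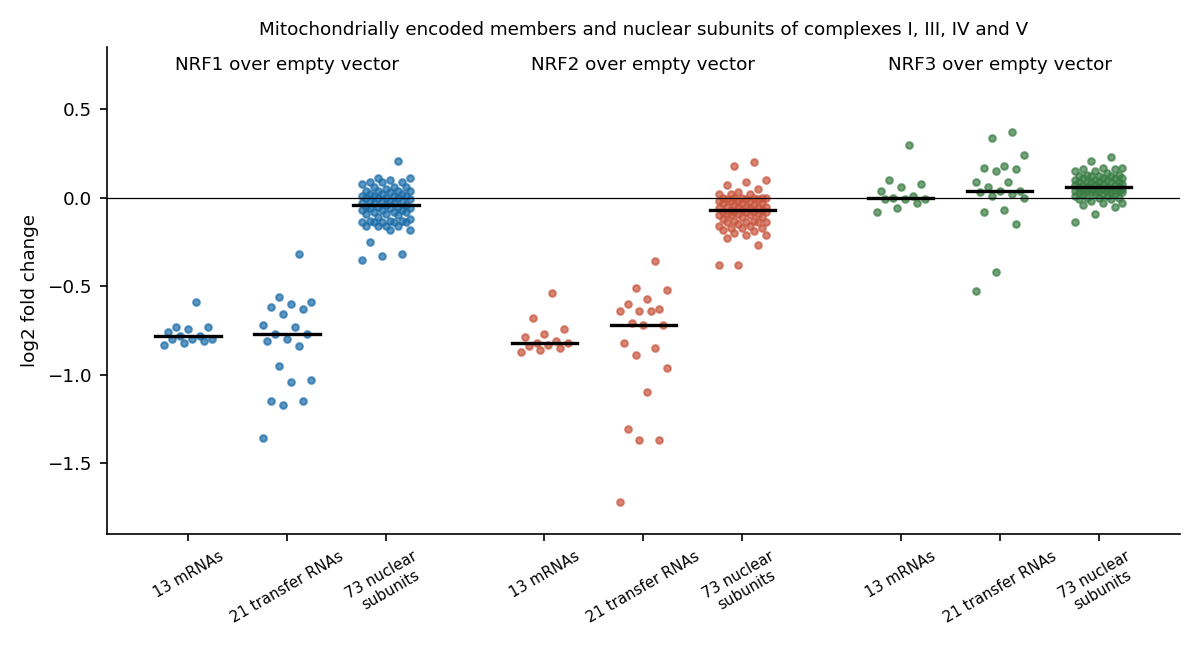
Log2 fold change over empty vector for the 13 mRNAs, the 21 transfer RNAs tested and 73 nuclear subunits of complexes I, III, IV and V, with NRF1, NRF2 and NRF3 from left to right. Each point is a gene and the black line the median; the medians of the mRNAs are -0.78, -0.82 and -0.00 and those of the nuclear subunits -0.04, -0.07 and 0.06.

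The nuclear genes that make and handle these RNAs are read here against the shares of all genes called, which were 0.238% higher and 1.51% lower with NRF1, 4.68% and 5.81% with NRF2, and 0.0198% and 0.00661% with NRF3. The list of 14 genes for mitochondrial transcription and genome maintenance includes POLRMT, the mitochondrial RNA polymerase, and TFAM, which packages the genome. At an unadjusted p under 0.05 there were 0 with NRF1 or NRF3 and 3 with NRF2, where 11.7% of all genes were higher and 12.8% lower. At adjusted p edgeR called 0 of the 14 with NRF1 or NRF3 and 1 with NRF2. That gene was MTERF2, a member of the termination factor family (-0.40, SE 0.12, adjusted p = 0.0464). POLRMT stood at 101, 115 and 124 CPM with NRF1, 115, 94.2 and 103 CPM with NRF2, 101, 113 and 81.4 CPM with NRF3 and 102, 106 and 111 CPM with empty vector. TFAM stood at 269, 244 and 240 CPM with NRF1, 237, 259 and 240 CPM with NRF2, 243, 245 and 306 CPM with NRF3 and 256, 248 and 235 CPM with empty vector. In both genes all groups overlapped.

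Of 36 tested genes for cutting, modifying and degrading mitochondrial RNA, 1 fell with NRF1, 2 rose and 3 fell with NRF2, and 0 were called with NRF3. Over all genes 4.68% rose and 5.81% fell with NRF2, so that the list's counts called in that comparison are of the order of the background. At an unadjusted p under 0.05 the list had 3 with NRF1, 11 with NRF2 and 3 with NRF3. By that threshold 7.45% of all genes were higher and 9.90% lower with NRF1. The shares were 11.7% and 12.8% with NRF2, and 1.71% and 2.41% with NRF3. The median log2 fold change of the 36 was 0.00 with NRF1, -0.04 with NRF2 and 0.02 with NRF3, against -0.01, 0.00 and 0.00 over all genes. PTCD2, a pentatricopeptide protein known in mouse for its part in Cytb processing, had 23.1, 20.9 and 22.5 CPM with NRF1, 23.3, 22.4 and 21.7 CPM with NRF2, 25.8, 24.5 and 25.3 CPM with NRF3 and 30.7, 28.6 and 30.5 CPM with empty vector. It fell with NRF1 (-0.43, SE 0.08, adjusted p = 0.0143) and under NRF2 (-0.42, SE 0.08, adjusted p = 0.00336). NSUN3, which methylates the anticodon loop of TRNM, had 10.6, 9.71 and 7.89 CPM with NRF1, 15.3, 17.2 and 16.0 CPM with NRF2, 7.0, 9.0 and 10.6 CPM with NRF3 and 9.65, 10.0 and 8.31 CPM with empty vector. NSUN3 rose with NRF2 (0.79, SE 0.14, adjusted p = 0.00178, edgeR) and not with NRF1 (0.01, adjusted p = 0.985). The log2 fold change of TRNM was -1.37 with NRF2 and -1.04 with NRF1, and a link between these genes was not tested. REXO2, a nuclease of short RNA, also rose with NRF2 (0.26, SE 0.08, adjusted p = 0.0451), while FASTK, known for keeping ND6 mRNA stable, fell (-0.43, SE 0.08, adjusted p = 0.00332), as did MRM1, a methyltransferase of mitochondrial ribosomal RNA (-0.46, SE 0.11, adjusted p = 0.0111). Of the 22 genes for charging mitochondrial transfer RNAs, 4 had an unadjusted p under 0.05 with NRF1, 5 with NRF2 and 0 with NRF3. These counts are read against the unadjusted shares of all genes given above. At adjusted p edgeR called 0 with NRF1, 0 with NRF3 and 1 with NRF2. That gene was VARS2, the valine enzyme, at -0.23 (SE 0.07, adjusted p = 0.0497).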

How the data were processed

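Total RNA was purified on RNeasy columns and sequenced at BGI, and the authors processed the reads with the DNASTAR Lasergene Genomics Suite against GRCh37.p13. How that suite counted reads, in which version and with which strand setting is not stated in the paper or labels. The deposited table holds estimated counts for 38019 genes in 12 libraries, in which 0.009 stands for no count (45.8% of values) and 5.96% of values of 0.5 or more were not whole at a tolerance of 1e-06. The vehicle columns were taken as the empty vector libraries, the only group left without a column. Of the genes, 26 bear a number in place of a symbol.

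Estimated counts were rounded and fitted with edgeR 4.0.16 (R 4.3.3): the filterByExpr filter with a minimum count of 10, TMM scaling, a single robust quasi-likelihood model of the 4 groups, and Benjamini-Hochberg adjustment over the 15135 genes tested, with a threshold of 0.05. Standard errors are the fold change over the root of F and are approximate. CPM is the estimated count, before rounding, per 1000000 of the library total. CPM per kilobase uses RefSeq gene lengths, which equalled those of GENCODE release 29 for all 35 members. The numbers of members and of all genes whose libraries did not overlap were taken from rounded counts after TMM scaling. DESeq2 1.42.0, limma-voom (limma 3.58.1), the unequal variance test named in the study's methods, other scalings and filters, a replicate block and the omission of each library were alternatives. Precision is limited by 3 libraries per group.

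The members and gene lists were chosen with earlier results of these data known. Values in every library are given for members called in a comparison with empty vector, and other members by range. Libraries of a group differed beyond sampling noise (chi-square per gene 2.19 to 29.4). The result for 1 marker gene is not reported here.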

Additional observations from a re-analysis of the deposited data

How the results depend on the processing

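No member changed direction among those called in any comparison under any alternative run. Members called lower with NRF1 over empty vector numbered 19 as reported, 32 with limma-voom, 0 with the unequal variance test and 0 to 23 when a library was left out. Over all genes 229, 1529 and 0 were called lower in these fits, and 26 to 429 when a library was left out. Without the low-count filter 13 members were called, of which 7 were among the reported ones and 0 were mRNAs. That setting called 385 lower over all genes. With NRF2 over empty vector the 25 became 0 with the unequal variance test and 16 to 28 when a library was left out. The 879 lower over all genes became 32 with that test and 454 to 1212 when a library was left out. For NRF2 over NRF1, 0 members were lower as reported and 1, TRNS1, with DESeq2, limma-voom, no low-count filter or only the compared groups, and 0 to 1 when a library was left out, the adjusted p of TRNS1 running between 0.00109 and 0.534. Over all genes 31 were lower as reported and 46, 186, 59 and 56 in those settings. The number was 15 to 68 when a library was left out. For NRF3 over NRF1 the 15 called higher became 24 with DESeq2, 31 with limma-voom, 0 with the unequal variance test, 8 with library totals in place of TMM, 1 with only the compared groups and 0 to 24 when a library was left out. The 53 higher over all genes became 103, 610, 0, 28 and 4 in those settings. They became 3 to 641 when a library was left out. For NRF3 over NRF2 the 28 became 0 with the unequal variance test and 15 to 30 when a library was left out. The 416 higher over all genes became 0 with that test and 162 to 1497 when a library was left out. With the replicate number as a block the counts were 15 lower with NRF1, 25 lower with NRF2, 0 higher for NRF3 over NRF1 and 24 higher for NRF3 over NRF2. The corresponding counts over all genes were 147, 680, 5 and 304. Same-numbered libraries did not deviate together (18 pairs, correlation -0.258 to 0.0841), so no shared effect of the number was seen. Whether they were prepared together cannot be told from these correlations. The cause of the differences between settings was not tested. TRND and TRNW rest on 2 to 14 and 2 to 10 counts a library, which limits what can be detected for them.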
